A study of Rattus norvegicus with 8 samples.

Results

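The constitutive proteasome subunits are the genes that encode the core particle, the regulatory particle and the activators of the proteasome. They were taken as every gene whose annotated symbol is Psma, Psmb, Psmc, Psmd or Psme followed by a number, leaving out the inducible catalytic subunits Psmb8, Psmb9 and Psmb10. The array held 36 such genes among 14218 genes that have a probe set annotated with 1 symbol: 7 Psma, 6 Psmb, 6 Psmc, 14 Psmd and 3 Psme. Of 40 rat protein-coding genes in RefSeq whose symbols fit the same pattern, Psmb6 and Psme3 were annotated only on probe sets shared with other genes, and Psma8 and Psmb11 had no probe set of their own in the annotation used here. These 4 are given no values. All 36 subunits passed the filter on dim probe sets (a mean of at least 4.81 on the log2 scale), with means from 8.60 to 12.28, and so all 36 were among the 11377 genes tested.

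The cells were primary vascular smooth muscle cells taken from thoracic aortas of Sprague-Dawley rats (male, age not stated) and grown for 2 passages in medium with serum. They were transfected for 48 h with a non-targeting control siRNA (siNTC) or with an siRNA against Giver (siGiver), a long non-coding RNA of these cells. They were then given phosphate-buffered saline (PBS) or 100 nM angiotensin II (Ang II), a blood pressure hormone that makes these cells contract, grow and express inflammatory genes, for 3 h. Each of the 4 combinations has 2 Affymetrix arrays, named below as siNTC PBS, siNTC Ang II, siGiver PBS and siGiver Ang II. All groups, the PBS groups included, had been transfected with an siRNA, and no untransfected cells were analysed here. No probe set used here is annotated as Giver, so siGiver names the siRNA that was given. The design asks what the siRNA changes in each treatment, and whether it changes the response to Ang II.

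The proteasome degrades proteins that carry ubiquitin chains. Its core particle is a barrel with outer alpha rings, which form the gate, and inner beta rings, where Psmb5, Psmb6 and Psmb7 cut proteins. A regulatory particle binds each end: its base holds a ring of Psmc ATPases that unfold substrates, and its lid holds Psmd subunits, among them the deubiquitinase Psmd14. Psme1 and Psme2 form another cap, PA28, which opens the core without ATP or ubiquitin and is induced by interferon. In the immunoproteasome, Psmb8, Psmb9 and Psmb10 replace the catalytic subunits. The transcription factor Nfe2l1 is known to raise most subunit genes together when proteasome activity falls short.

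The cells carried the markers of their label. All 10 smooth muscle markers looked up were above the filter, with means from 7.81 to 14.05, and their average level was 10.80 in siNTC PBS, 10.71 in siNTC Ang II, 11.02 in siGiver PBS and 11.06 in siGiver Ang II. None of the 7 endothelial markers on the array was above it (3.20 to 4.40). All 7 fibroblast markers were (4.94 to 12.41), with a lowest average of 7.57 in siNTC Ang II and a highest of 7.92 in siGiver PBS. Of 7 macrophage and leukocyte markers on the array, Cd14, Aif1 and Cd68 were above the filter, and Ptprc, which defines leukocytes, was below it at 3.35. Paired arrays of a group correlated at 0.998 over all probe sets, and array medians lay between 6.15 and 6.19. In bulk RNA, fewer cells with a transcript and less of it per cell cannot be told apart.

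Subunit transcripts as a group were highest in siNTC cells given Ang II. Measured from each gene's mean over the 8 arrays, the median subunit stood at -0.01 and 0.06 log2 in the siNTC PBS arrays, at 0.14 and 0.15 in siNTC Ang II, at -0.09 and -0.06 in siGiver PBS, and at -0.10 and -0.08 in siGiver Ang II. The 4 siNTC arrays all stood above the 4 siGiver arrays on this measure, and over all genes tested the same medians lay between -0.02 and 0.01. The siNTC Ang II group had the highest mean for 28 of the 36 subunits, against 27.6% of all genes tested, and the lowest mean for 0. The lowest mean was in siGiver Ang II for 17 subunits (34.4% of all genes tested), in siGiver PBS for 11 (21.7%) and in siNTC PBS for 8 (21.3%), and the last of these is a share close to the background. Single subunits moved little: the largest difference between any compared groups was 1.54-fold, for Psmd7. A probe set for 5S ribosomal RNA, placed on the array as a control, was also highest in siNTC Ang II, at 8.88 and 8.93, against 8.15 and 8.24 in siNTC PBS and 7.62 to 7.77 in the siGiver arrays, and its part in these results was not tested. The 3 GAPDH control probe sets ran the other way, from 12.39 to 12.71 in the siNTC arrays and from 13.11 to 13.21 in the siGiver arrays.

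**Figure D1:**
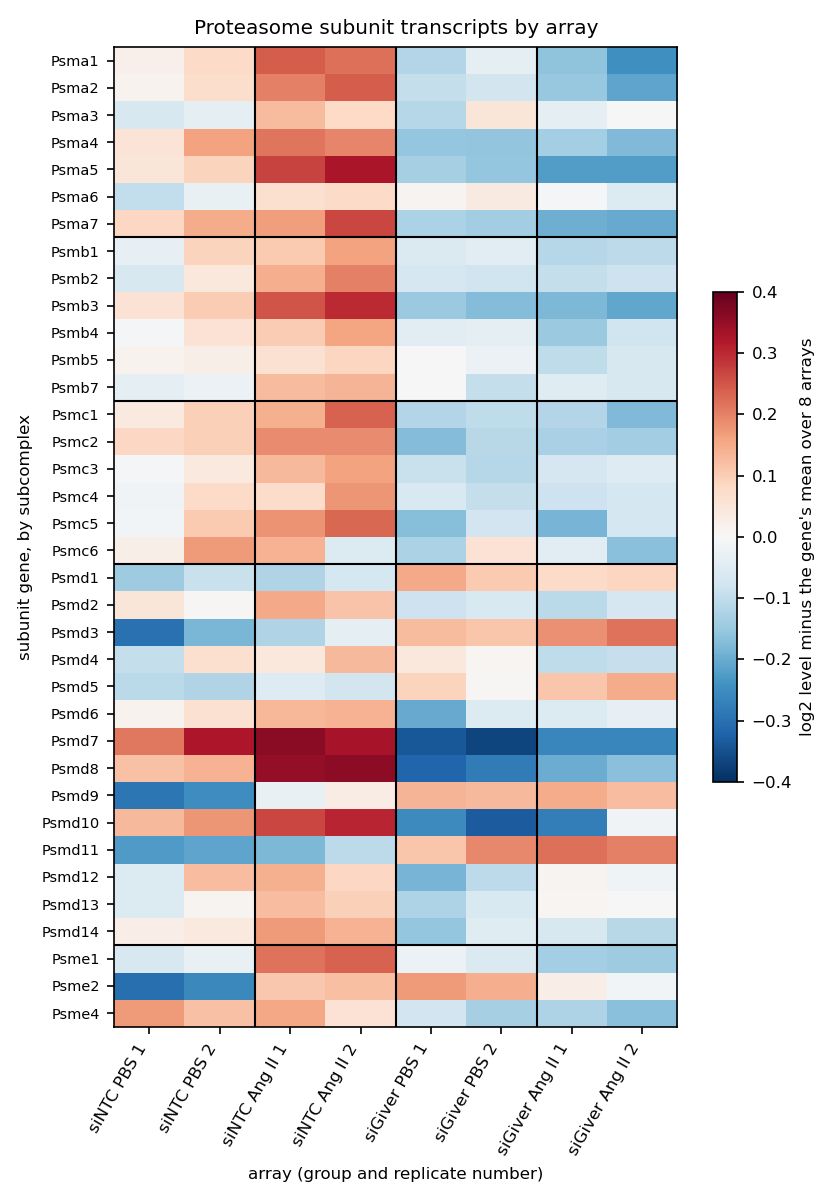
Each row is a subunit gene and each column an array, and colour gives the log2 level minus that gene's mean over the 8 arrays. Black lines separate the groups and, from top to bottom, the alpha ring, beta ring, ATPase, non-ATPase and activator genes. Most rows are reddest in the siNTC Ang II columns, and Psmd1, Psmd3, Psmd5, Psmd9 and Psmd11 show the reverse order between siRNAs.

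A subunit was counted as changed at an adjusted p under 0.05 (limma, Benjamini-Hochberg over all 11377 genes). Ang II raised 6 subunits in siNTC cells and lowered 0, where 3.96% of all genes rose and 2.17% fell. In siGiver cells Ang II changed 0 of the 36, where 9.11% of all genes rose and 7.17% fell. There 3 of the 36 had an unadjusted p under 0.05, against 3722 of all 11377 genes. Between siRNAs in PBS, 6 subunits were higher in siGiver cells and 10 lower, where 16.0% of all genes were higher and 19.1% lower, so the share of higher subunits was close to the background. Between siRNAs with Ang II, 5 were higher in siGiver cells and 25 lower, where 19.5% of all genes were higher and 24.8% lower. With both treatments averaged, 6 were higher and 25 lower, where 23.1% of all genes were higher and 29.1% lower. For the interaction, which subtracts the Ang II effect in siNTC from that in siGiver cells, 0 subunits were above the threshold in the positive direction and 3 in the negative, against 3.35% and 2.87% of all genes.

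The promoters of 4 subunits on which the comparisons turn show how the genes differ in known regulatory letters: Psme2, Psme1 and Psma5 are the 3 with an interaction, and Psmd7 had the largest siRNA difference. Each sequence runs 5′ to 3′ on the gene's strand, from 250 bases before to 50 after the RefSeq start in GRCr8. They lie at chr15:33052702-33053001 (minus strand) for Psme2, chr15:33038721-33039020 (plus strand) for Psme1, chr2:198584255-198584554 (plus strand) for Psma5, and chr19:52411267-52411566 (minus strand) for Psmd7. Capitals mark a match, on either strand, to 1 of 4 motifs: GAAANNGAAA (an interferon response element core), TGACNNNGC (the core of the antioxidant response element that Nfe2l1 and Nfe2l2 read), CCAAT (the NF-Y box) or CCGGAAG (an ETS site).
Psme2: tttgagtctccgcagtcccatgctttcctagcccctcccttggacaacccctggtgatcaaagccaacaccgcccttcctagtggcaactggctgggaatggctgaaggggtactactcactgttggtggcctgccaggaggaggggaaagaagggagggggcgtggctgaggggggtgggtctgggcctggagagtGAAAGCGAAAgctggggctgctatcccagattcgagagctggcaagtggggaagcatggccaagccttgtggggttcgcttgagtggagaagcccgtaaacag
Psme1: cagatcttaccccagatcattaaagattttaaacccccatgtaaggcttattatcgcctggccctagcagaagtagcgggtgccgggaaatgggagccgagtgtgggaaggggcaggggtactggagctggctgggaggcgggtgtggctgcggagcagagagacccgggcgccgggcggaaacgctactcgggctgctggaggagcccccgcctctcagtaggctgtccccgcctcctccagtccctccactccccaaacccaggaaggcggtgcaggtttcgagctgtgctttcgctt
Psma5: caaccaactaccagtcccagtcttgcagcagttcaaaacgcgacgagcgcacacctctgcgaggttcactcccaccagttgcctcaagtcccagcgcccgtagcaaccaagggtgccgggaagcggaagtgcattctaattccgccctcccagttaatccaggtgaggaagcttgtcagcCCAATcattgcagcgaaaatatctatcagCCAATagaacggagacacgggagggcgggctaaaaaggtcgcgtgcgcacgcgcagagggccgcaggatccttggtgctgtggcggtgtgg
Psmd7: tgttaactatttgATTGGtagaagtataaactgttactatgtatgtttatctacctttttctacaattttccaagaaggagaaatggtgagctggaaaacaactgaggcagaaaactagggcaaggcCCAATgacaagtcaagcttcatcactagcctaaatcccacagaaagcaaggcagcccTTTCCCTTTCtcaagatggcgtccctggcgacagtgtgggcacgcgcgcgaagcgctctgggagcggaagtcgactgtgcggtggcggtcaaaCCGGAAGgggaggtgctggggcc

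The Psme2 window holds GAAAGCGAAA at -53 from the start and no match to the other 3 motifs. The Psme1 window, on the same chromosome, holds no complete match to any of the 4. Its last letters, however, fit the opening letters of GAAANNGAAA as read on the other strand. Bases beyond the window were not searched, so whether a Psme1 match runs across its edge was not tested. Psma5 has CCAAT at -70 and -41. Psmd7 has an NF-Y box at -237 and -123, TTTCCCTTTC (GAAANNGAAA on the other strand) at -66, and CCGGAAG at 28 after the start. Of the 36 subunits, 32 had a promoter in the RefSeq table. Among these, 11 (34.4%) held CCGGAAG against 9.22% of all 27457 promoters, 16 of 32 held CCAAT against 37.7%, and 7 (21.9%) held TGACNNNGC against 12.2%. GAAANNGAAA, a motif chosen after the values were seen, was in 4 (12.5%), namely Psma4, Psmb3, Psmd7 and Psme2, against 3.77% of all promoters. Among the other genes looked up, it was in the windows of the inducible subunits Psmb8 and Psmb10, and none was recorded for Psmb9. It was also in those of Tap1, Tap2, Tapbp, B2m, Keap1 and Psmg4. A match describes letters only, and none of the motifs overlap in the windows printed.

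In the alpha ring, which gates the core, siGiver cells had lower transcripts for 3 of 7 subunits in PBS, where 19.1% of all genes were lower. With Ang II they were lower for 5 of 7, where 24.8% of all genes were lower. In either treatment 0 were higher, against 16.0% of all genes in PBS and 19.5% with Ang II. The median difference of the ring was -0.13 in PBS and -0.40 with Ang II. The log2 level of Psma5 was 11.30 and 11.33 in siNTC PBS, 11.51 and 11.57 in siNTC Ang II, 11.11 and 11.09 in siGiver PBS, and 11.02 and 11.02 in siGiver Ang II. All 4 siGiver arrays lay below all 4 siNTC arrays, and the siNTC Ang II pair lay above the siNTC PBS pair. Psma5 in siGiver cells was thus 1.16-fold lower in PBS (-0.21 ± 0.044, log2 difference ± SE, adjusted p = 0.00827) and 1.44-fold lower with Ang II (-0.52 ± 0.044, adjusted p = 1.01e-04). Psma4 showed the siRNA difference with no called Ang II effect in either arm. Its level was 10.48 and 10.58 in siNTC PBS, 10.63 and 10.62 in siNTC Ang II, 10.27 and 10.26 in siGiver PBS, and 10.29 and 10.25 in siGiver Ang II. The arrays of the 2 siRNAs did not overlap, and the differences were -0.26 ± 0.050 in PBS (adjusted p = 0.00538) and -0.36 ± 0.050 with Ang II (adjusted p = 9.28e-04). Psma7 was also lower in both treatments, with -0.25 and -0.42, while Psma1 and Psma2 passed only with Ang II, at -0.43 and -0.40. Psma3 and Psma6 passed in neither, with -0.12 and -0.10 with Ang II. These 2 genes thus had the smallest siRNA differences of the ring.

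In the beta ring, all 6 measured subunits were lower in siGiver cells with Ang II, where 24.8% of all genes were lower. In PBS 1 of 6, Psmb3, was lower, a share close to the 19.1% of all genes. The median difference of the ring was -0.24 with Ang II and -0.06 in PBS. Psmb3, a non-catalytic subunit, had the largest difference of the ring. Its level was 11.13 and 11.18 in siNTC PBS, 11.33 and 11.37 in siNTC Ang II, 10.93 and 10.90 in siGiver PBS, and 10.89 and 10.87 in siGiver Ang II. Both siGiver groups lay below both siNTC groups, with -0.24 ± 0.044 in PBS (adjusted p = 0.00481) and -0.47 ± 0.044, or 1.38-fold lower, with Ang II (adjusted p = 1.60e-04). The catalytic subunits differed less. Psmb5, which carries the chymotrypsin-like activity, had levels of 11.58 and 11.59 in siNTC PBS, 11.63 and 11.65 in siNTC Ang II, 11.57 and 11.54 in siGiver PBS, and 11.47 and 11.50 in siGiver Ang II. The siGiver Ang II arrays were the lowest, within a narrow range over the 8 arrays. Psmb5 was lower in siGiver cells with Ang II, at -0.15 ± 0.042 (adjusted p = 0.0198) and did not pass in PBS (-0.03, 95% interval -0.13 to 0.07). Psmb7, which carries the trypsin-like activity, had levels of 10.41 and 10.42 in siNTC PBS, 10.57 and 10.58 in siNTC Ang II, 10.45 and 10.35 in siGiver PBS, and 10.40 and 10.38 in siGiver Ang II. The siNTC Ang II arrays stood above all others, and the PBS groups of the 2 siRNAs overlapped. Its siRNA difference was -0.19 ± 0.048 with Ang II (adjusted p = 0.0145) and -0.02 in PBS (95% interval -0.13 to 0.09). With Ang II, the siRNA calls of Psmb5 and Psmb7 were lost when any 1 of the 4 Ang II arrays was left out. The others, Psmb1, Psmb2 and Psmb4, had differences of -0.24, -0.26 and -0.24 with Ang II.

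The ATPases of the base unfold substrates and thread them into the core. With Ang II, 5 of 6 were lower in siGiver cells (median -0.26), from -0.34 for Psmc1 to -0.20 for Psmc4, where 24.8% of all genes were lower. In PBS, Psmc1 (-0.18) and Psmc2 (-0.23) passed, where 19.1% of all genes were lower. The PBS call of Psmc1 was lost without any 1 of the 4 PBS arrays, and the Ang II call of Psmc4 without siNTC Ang II replicate 2 or either siGiver Ang II array. The remaining ATPase, Psmc6, had the widest spread of all subunits in the fit, with an SE of 0.094, and its arrays overlapped in every comparison. No ATPase passed the threshold for Ang II in either arm, with medians of 0.11 in siNTC and -0.0031 in siGiver cells. In siNTC cells 5 of 6 values were positive and 3 had an unadjusted p under 0.05 (limma). In siGiver cells 3 were positive and 0 had such a p.

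**Figure D2:**
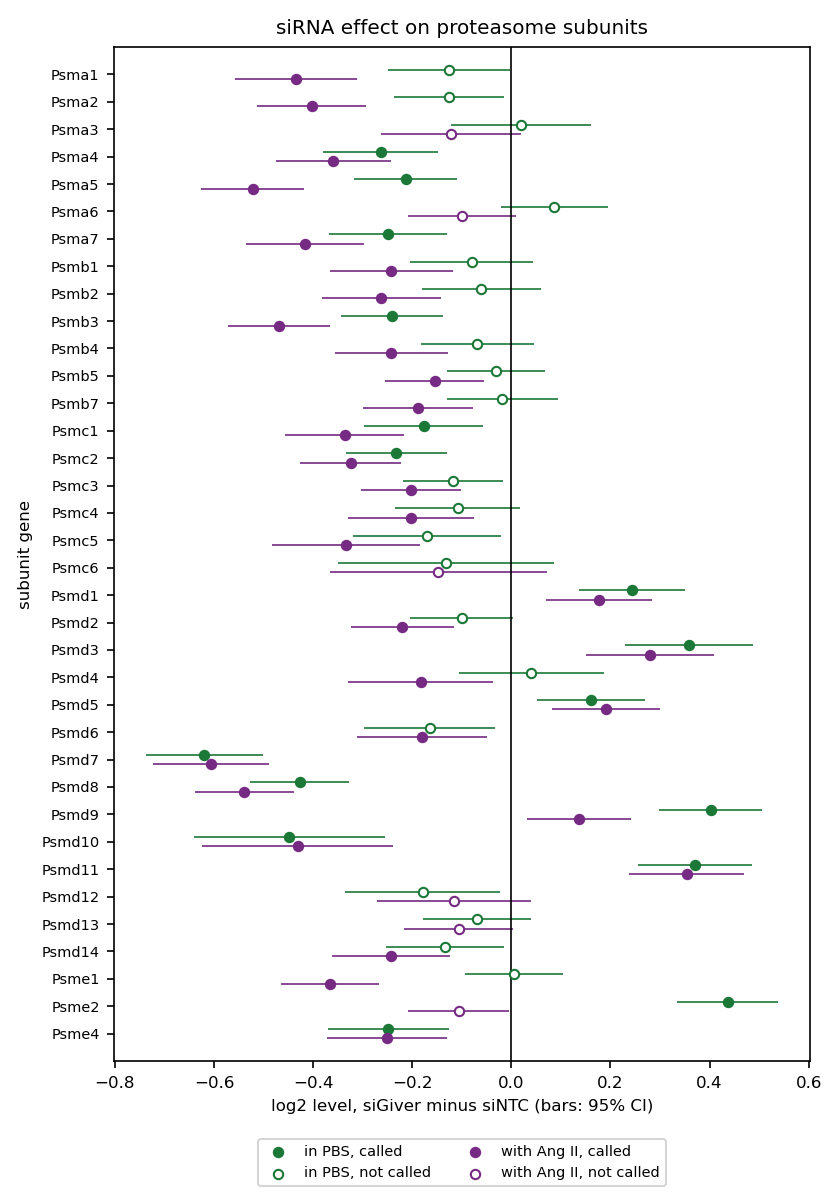
Points give the log2 level in siGiver minus siNTC cells for each subunit gene, in PBS (green) and with Ang II (purple), with bars for the 95% confidence interval of the fit and filled points for an adjusted p under 0.05. With Ang II, 25 points are filled left of 0 and 5 right of it, and Psmd7 lies farthest left in both treatments.

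The non-ATPase subunits and chaperones of the regulatory particle split in both directions. Of these 14 Psmd genes, 5 were higher and 3 lower in siGiver cells in PBS, and 5 were higher and 7 lower with Ang II. Over all genes, 16.0% were higher and 19.1% lower in PBS, so the share of lower Psmd genes there was close to the background. With Ang II, 19.5% of all genes were higher and 24.8% lower. Psmd7, the lid subunit that pairs with the deubiquitinase Psmd14, had the largest difference. Its level was 10.03 and 10.14 in siNTC PBS, 10.18 and 10.15 in siNTC Ang II, 9.48 and 9.45 in siGiver PBS, and 9.56 and 9.56 in siGiver Ang II. All 4 siGiver arrays lay below all 4 siNTC arrays. Psmd7 was 1.54-fold lower in siGiver cells in PBS (-0.62 ± 0.051, adjusted p = 1.38e-04) and 1.52-fold lower with Ang II (-0.61 ± 0.051, adjusted p = 8.95e-05). A second probe set for Psmd7 gave -0.59 and -0.54 (adjusted p = 0.000871 and 0.000721 over all probe sets). Psmd8, a lid subunit, was next. Its level was 10.42 and 10.45 in siNTC PBS, 10.66 and 10.66 in siNTC Ang II, 9.99 and 10.03 in siGiver PBS, and 10.11 and 10.14 in siGiver Ang II. The siRNAs did not overlap, and the Ang II pair lay above the PBS pair within each. The siRNA difference was -0.43 ± 0.043 in PBS (adjusted p = 3.04e-04) and -0.54 ± 0.043 with Ang II (adjusted p = 7.25e-05). Psmd10, the assembly chaperone gankyrin, had levels of 9.42 and 9.47 in siNTC PBS, 9.56 and 9.60 in siNTC Ang II, 9.04 and 8.96 in siGiver PBS, and 9.02 and 9.28 in siGiver Ang II. The siGiver Ang II arrays lay far apart, yet both were below every siNTC array. The differences were -0.45 ± 0.083 in PBS (adjusted p = 0.00481) and -0.43 ± 0.083 with Ang II (adjusted p = 0.00417). With Ang II the deubiquitinase Psmd14 (-0.24), the ubiquitin receptor Psmd4 (-0.18), Psmd2 (-0.22) and Psmd6 (-0.18) were lower too. The calls of Psmd4 and Psmd6 were lost without any 1 of the 4 Ang II arrays, and that of Psmd4 also without either siGiver PBS array. Psmd12 and Psmd13 did not pass in either treatment.

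The same 5 Psmd genes were higher in siGiver cells in both treatments. Psmd11, a lid subunit, had levels of 9.71 and 9.73 in siNTC PBS, 9.76 and 9.83 in siNTC Ang II, 10.05 and 10.13 in siGiver PBS, and 10.16 and 10.14 in siGiver Ang II. Every siGiver array was above every siNTC array. The difference was 0.37 ± 0.050 in PBS (adjusted p = 0.00110) and 0.35 ± 0.050 with Ang II (adjusted p = 9.66e-04). A second probe set for Psmd11 gave 0.28 in PBS (adjusted p = 0.0116) and 0.05 with Ang II (adjusted p = 0.560), adjusted over all probe sets. Psmd3, another lid subunit, had levels of 8.30 and 8.42 in siNTC PBS, 8.48 and 8.56 in siNTC Ang II, 8.73 and 8.71 in siGiver PBS, and 8.78 and 8.82 in siGiver Ang II. The siRNAs again did not overlap, with 0.36 ± 0.055 in PBS (adjusted p = 0.00213) and 0.28 ± 0.055 with Ang II (adjusted p = 0.00489). Psmd9, a chaperone of ATPase assembly, had levels of 8.74 and 8.78 in siNTC PBS, 9.0 and 9.06 in siNTC Ang II, 9.17 and 9.16 in siGiver PBS, and 9.18 and 9.15 in siGiver Ang II. The siNTC PBS pair was lowest, the siNTC Ang II pair came next, and the siGiver groups lay above both and overlapped each other. The siRNA difference was 0.40 ± 0.045 in PBS (adjusted p = 4.82e-04) and 0.14 ± 0.045 with Ang II (adjusted p = 0.0396). The smaller value is not a stable call, since it was lost without any 1 array of siNTC Ang II, siGiver PBS or siGiver Ang II.

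Psmd1, a scaffold of the base, and Psmd5, a chaperone of its assembly, had the smallest of the 5 differences in PBS. Psmd1 had levels of 8.81 and 8.86 in siNTC PBS, 8.83 and 8.88 in siNTC Ang II, 9.10 and 9.05 in siGiver PBS, and 9.03 and 9.03 in siGiver Ang II. Its arrays did not overlap between siRNAs (0.24 ± 0.046 in PBS, adjusted p = 0.00534, and 0.18 ± 0.046 with Ang II, adjusted p = 0.0157). Psmd5 had levels of 10.35 and 10.34 in siNTC PBS, 10.41 and 10.39 in siNTC Ang II, 10.55 and 10.47 in siGiver PBS, and 10.57 and 10.61 in siGiver Ang II. Again the siGiver arrays were above the siNTC arrays (0.16 ± 0.047 in PBS, adjusted p = 0.0320, and 0.19 ± 0.047 with Ang II, adjusted p = 0.0126). Both directions thus held lid subunits (Psmd3 and Psmd11 higher, Psmd7 and Psmd8 lower), scaffolds of the base (Psmd1 higher, Psmd2 lower with Ang II) and assembly chaperones (Psmd5 and Psmd9 higher, Psmd10 lower). The call of Psmd1 with Ang II was lost without siNTC Ang II replicate 1 or either siGiver Ang II array, and that of Psmd5 without siNTC Ang II replicate 2 or siGiver Ang II replicate 2. In PBS the Psmd5 call was lost without siGiver PBS replicate 1 or either of the siNTC PBS arrays.

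**Figure D3:**
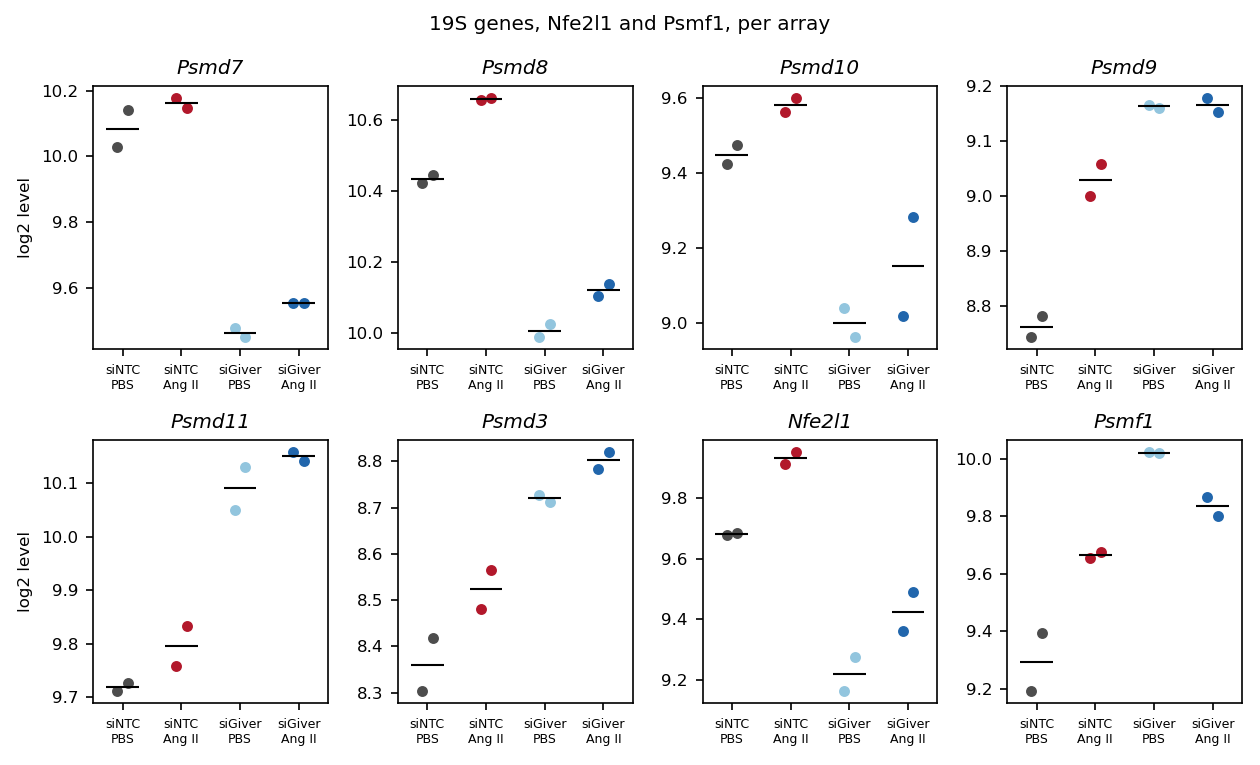
Points are the log2 level on each array, by group, and bars the group mean of 2 arrays, for 6 Psmd genes, the transcription factor Nfe2l1 and the proteasome inhibitor Psmf1. Each panel has its own axis, which does not start at 0. Psmd7, Psmd8, Psmd10 and Nfe2l1 lie lower in the siGiver groups, and Psmd9, Psmd11, Psmd3 and Psmf1 higher.

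The PBS and Ang II comparisons between siRNAs share no array. Yet the fit pooled each gene's spread over all 8 arrays, so the lists of calls are not independent. Of the 10 subunits lower in PBS, all 10 were among the 25 lower with Ang II: Psma4, Psma5, Psma7, Psmb3, Psmc1, Psmc2, Psmd7, Psmd8, Psmd10 and Psme4. Of the 6 higher in PBS, 5 were among the 5 higher with Ang II, and the exception was Psme2. No subunit passed in opposite directions. How often the calls of all genes are shared in this way was not counted, so the overlap is not shown to be particular to the subunits. Of the called subunits, 13 of 16 in PBS and 22 of 30 with Ang II kept an adjusted p under 0.05 whichever array was left out. With trended, robust moderation of the variances the PBS count was 26. Over all genes, PBS calls then went from 1817 higher and 2169 lower to 2054 and 2579. Averaging all probe sets of a gene that passed the filter ended the calls of Psmb5, Psmd14, Psme1 and Psme4 with Ang II.

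The response to Ang II was small and differed between arms for the PA28 cap. In siNTC cells the 6 called subunits rose by 0.19 to 0.39 on the log2 scale: Psme2, Psme1, Psmd9, Psma5, Psmd8 and Psmb3. Of all 36 subunits, 34 had a positive value and the median was 0.12, against 52.0% positive and a median of 0.01 over all genes tested. In siGiver cells 16 were positive and the median was -0.01, against 42.5% and -0.03 over all genes. With array medians subtracted, the siGiver median was 0.01. The 6 calls in siNTC cells were fragile apart from that of Psme2: 1 remained without siNTC PBS replicate 1, siNTC Ang II replicate 1 or siNTC Ang II replicate 2, and 2 without siNTC PBS replicate 2. The count was 3 with no filter and 15 with trended, robust moderation. Over all genes, 451 rose with the filter used, 300 of 14217 without it, and 852 with trended, robust moderation.

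Psme2, the beta subunit of PA28, had levels of 10.91 and 10.95 in siNTC PBS, 11.32 and 11.33 in siNTC Ang II, 11.38 and 11.35 in siGiver PBS, and 11.24 and 11.20 in siGiver Ang II. The siNTC PBS pair stood below the other 6 arrays, and within siGiver cells the Ang II pair lay below the PBS pair. Ang II raised Psme2 1.31-fold in siNTC cells (0.39 ± 0.044, adjusted p = 0.00304). In siGiver cells the value was -0.15 ± 0.044 (adjusted p = 0.0555), which missed the threshold. The interaction was -0.54 ± 0.062 (adjusted p = 0.00338), and it passed whichever array was left out and under each processing alternative. Psme2 was also 1.35-fold higher in siGiver than in siNTC cells in PBS (0.44 ± 0.044, adjusted p = 3.05e-04). That comparison and the Ang II effect in siNTC cells share the siNTC PBS arrays, as they do for Psmd9. With Ang II the siRNA difference was -0.11 ± 0.044 (adjusted p = 0.0843).

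Psme1, the alpha subunit of PA28, had levels of 12.21 and 12.25 in siNTC PBS, 12.49 and 12.51 in siNTC Ang II, 12.25 and 12.22 in siGiver PBS, and 12.14 and 12.13 in siGiver Ang II. The siNTC Ang II pair was highest, the siGiver Ang II pair lowest, and the PBS groups of the 2 siRNAs overlapped. Ang II raised it by 0.27 ± 0.042 in siNTC cells (adjusted p = 0.0114), and the value in siGiver cells was -0.10 ± 0.042 (adjusted p = 0.154). The interaction was -0.37 ± 0.060 (adjusted p = 0.0130). With Ang II, Psme1 was 1.29-fold lower in siGiver cells (-0.37 ± 0.042, adjusted p = 3.90e-04), and in PBS the siRNA difference was 0.01 (95% interval -0.09 to 0.10). Its Ang II and interaction calls were lost too when the gene's 2 probe sets were averaged, the other of which had a mean of 5.41. The interaction was also lost without siNTC Ang II replicate 2, siGiver PBS replicate 1 or siGiver Ang II replicate 2.

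Psme4, the activator PA200, which caps the core as a single protein, differed between siRNAs in both treatments. Its level was 10.57 and 10.51 in siNTC PBS, 10.55 and 10.46 in siNTC Ang II, 10.32 and 10.27 in siGiver PBS, and 10.27 and 10.23 in siGiver Ang II. The siNTC arrays were all above the siGiver arrays, and the PBS and Ang II arrays overlapped within each siRNA. Psme4 was lower in siGiver cells, at -0.25 ± 0.052 in PBS (adjusted p = 0.00855) and -0.25 ± 0.052 with Ang II (adjusted p = 0.00612). The PBS call was lost without siGiver PBS replicate 2. Its Ang II values were -0.04 in siNTC cells and -0.04 in siGiver cells, neither of which passed.

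**Figure D4:**
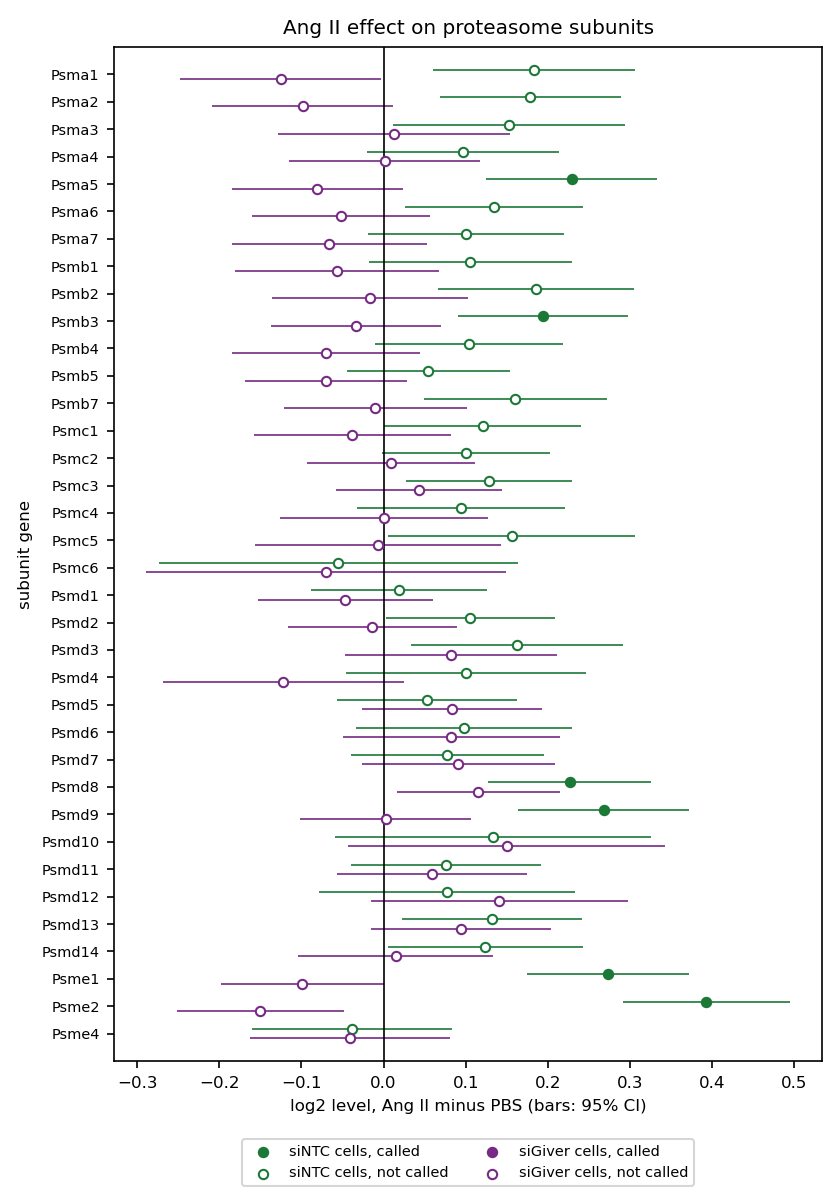
Points give the log2 level with Ang II minus PBS for each subunit gene, in siNTC cells (green) and siGiver cells (purple), with bars for the 95% confidence interval of the fit and filled points for an adjusted p under 0.05. In siNTC cells 6 points are filled, all right of 0, and in siGiver cells 0.

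Over the 36 subunits the interaction was negative for 32, with a median of -0.12, against 55.3% and -0.02 for all genes tested. Of the 36, 12 had an unadjusted p under 0.05, against 2589 of all 11377 genes. Besides Psme2 and Psme1, the alpha subunit Psma5 passed, at -0.31 ± 0.063 (adjusted p = 0.0307). Ang II raised Psma5 by 0.23 ± 0.044 in siNTC cells (adjusted p = 0.0273) and gave -0.08 ± 0.044 in siGiver cells (adjusted p = 0.254). The interaction of Psma5 was lost whichever array was left out. The count of 3 was 1 without siNTC Ang II replicate 2, siGiver PBS replicate 1 or siGiver Ang II replicate 2, and 7 with a filter at the 50th percentile, 6 with cyclic loess and 13 with trended, robust moderation. Over all genes, called negative interactions numbered 326, and 489 of 9227 with that filter, 368 with cyclic loess and 685 with trended, robust moderation. The subunits next below the threshold were Psmd9 at -0.27 (adjusted p = 0.0522), Psma1 at -0.31 (adjusted p = 0.0546) and Psma2 at -0.28 (adjusted p = 0.0546).

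The inducible catalytic subunits, like the PA28 cap, rose with Ang II in siNTC cells and had negative interactions. Psmb8 had levels of 9.85 and 9.93 in siNTC PBS, 10.44 and 10.54 in siNTC Ang II, 9.32 and 9.28 in siGiver PBS, and 9.21 and 9.30 in siGiver Ang II. Psmb9 had levels of 10.68 and 10.72 in siNTC PBS, 11.35 and 11.33 in siNTC Ang II, 10.77 and 10.80 in siGiver PBS, and 10.62 and 10.60 in siGiver Ang II. Psmb10 had levels of 9.17 and 9.30 in siNTC PBS, 9.80 and 9.98 in siNTC Ang II, 9.20 and 9.18 in siGiver PBS, and 9.05 and 9.11 in siGiver Ang II. The siNTC Ang II pair was highest for each of the 3, and the siGiver arrays of Psmb8 lay below all its siNTC arrays. All 3 rose with Ang II in siNTC cells, by 0.60, 0.64 and 0.65, or 1.52- to 1.57-fold. In siGiver cells their Ang II values were -0.04 (adjusted p = 0.631), -0.17 (adjusted p = 0.0341) and -0.11 (adjusted p = 0.323). The Psmb9 call there was lost without any 1 of the 4 siGiver arrays or the siNTC Ang II arrays, with no filter, with array medians subtracted and with the replicate block. With Ang II all 3 were lower in siGiver cells (-1.24, -0.73 and -0.81), and the interaction was -0.65, -0.81 and -0.77, called for each. The constitutive partners they replace had Ang II values of 0.05 (Psmb5) and 0.16 (Psmb7) in siNTC cells, with interactions of -0.12 (adjusted p = 0.269) and -0.17 (adjusted p = 0.188).

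**Figure D5:**
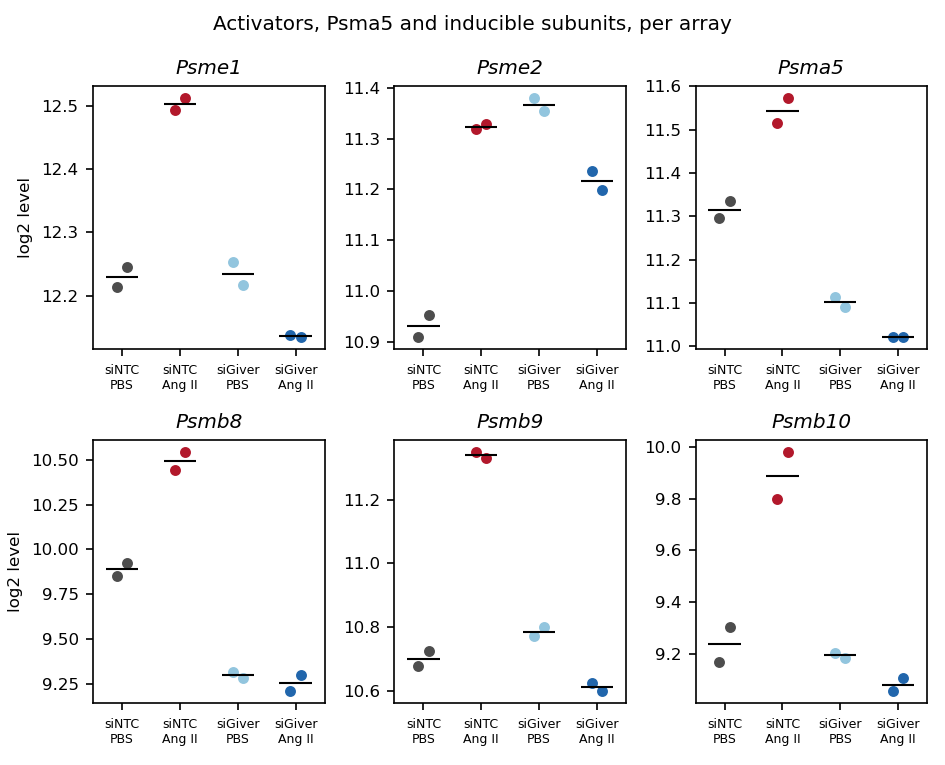
Points are the log2 level on each array, by group, and bars the group mean of 2 arrays, for the 3 constitutive genes with an interaction (top) and the 3 inducible catalytic subunits (bottom). Each panel has its own axis, which does not start at 0. In every panel the siNTC Ang II pair lies above the siNTC PBS pair and the mean of the siGiver Ang II pair lies below that of the siGiver PBS pair.

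Genes of class I peptide presentation, which work downstream of the proteasome, were also measured, together with Irf1. Of 6 tested, 4 rose with Ang II in siNTC cells: the peptide transporters Tap1 (0.54) and Tap2 (0.41), the loading factor Tapbp (0.44), and Irf1, a transcription factor of the interferon response (0.40), where 3.96% of all genes rose. The Tap2 call was lost without any 1 array of siNTC PBS, siNTC Ang II or siGiver PBS, with no filter and with each probe set on its own, and the Tapbp call without siNTC PBS replicate 1 or either siNTC Ang II array. All 6 were lower in siGiver cells with Ang II, from -0.66 for Tap1 to -0.18 for B2m, where 24.8% of all genes were lower. Of these calls, that of Tapbp was lost in 5 of 8 fits with an array left out, those without either siNTC Ang II array, either siGiver PBS array or siGiver Ang II replicate 1, and under 4 other settings. That of Tap2 was lost without siNTC Ang II replicate 1 or siGiver Ang II replicate 1, and that of B2m without siNTC Ang II replicate 2. The interaction passed for Tap1 (-0.48 ± 0.077, adjusted p = 0.0130) and Irf1 (-0.41 ± 0.067, adjusted p = 0.0135). It was lost for Tap1 without siNTC PBS replicate 1, and for Irf1 without siNTC PBS replicate 1, siNTC Ang II replicate 2, siGiver PBS replicate 1 or siGiver Ang II replicate 2.

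Among 13 tested genes that control transcription of proteasome genes, 5 were lower and 1 higher in siGiver cells in PBS, and 5 were lower and 4 higher with Ang II. Over all genes, 19.1% were lower and 16.0% higher in PBS, and 24.8% and 19.5% with Ang II. Nfe2l1, the factor that raises subunit genes, had levels of 9.68 and 9.69 in siNTC PBS, 9.91 and 9.95 in siNTC Ang II, 9.16 and 9.28 in siGiver PBS, and 9.36 and 9.49 in siGiver Ang II. Every siGiver array was below every siNTC array. The siRNA difference was -0.46 ± 0.061 in PBS (adjusted p = 0.00101) and -0.51 ± 0.061 with Ang II (adjusted p = 4.60e-04). Ngly1, the glycanase that processes the Nfe2l1 protein, was lower too (-0.31 and -0.38). Nfe2l2, a related factor of the oxidative stress response, was higher (0.17 and 0.18), and Keap1, which holds the Nfe2l2 protein back, was lower with Ang II (-0.48). Their small Maf partner Maff rose with Ang II by 0.85 in siGiver cells and by 0.22 in siNTC cells, an interaction of 0.63 ± 0.064 (adjusted p = 0.00203). The Maff call in siNTC cells was lost whichever array was left out. Also unstable were the siRNA calls of Ddi2, Mafg and Syvn1 in PBS and of Nfya, Nfyc and Vcp with Ang II. Each was lost in some fits with an array left out and under at least 1 other setting. In PBS the Nfe2l2 call was lost without any 1 of the 4 PBS arrays and that of Ngly1 without siNTC PBS replicate 2 or siGiver PBS replicate 1, and the Nfe2l2 call with Ang II was lost without siNTC Ang II replicate 2 or siGiver Ang II replicate 1.

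Of 8 tested assembly factors and inhibitors, 1 was higher and 0 lower in siGiver cells in PBS, and 3 were lower with Ang II. In PBS, 12.5% of these genes were called against 35.0% of all genes, and with Ang II 37.5% against 44.3%, so the list was called no more often than the background. Psmf1, the inhibitor PI31, had levels of 9.19 and 9.40 in siNTC PBS, 9.66 and 9.68 in siNTC Ang II, 10.02 and 10.02 in siGiver PBS, and 9.87 and 9.80 in siGiver Ang II. The siNTC PBS pair was lowest and the siGiver PBS pair highest, as for Psme2. Psmf1 was 1.66-fold higher in siGiver cells in PBS (0.73 ± 0.069, adjusted p = 2.44e-04), rose with Ang II in siNTC cells by 0.37 ± 0.069 (adjusted p = 0.0224), and had an interaction of -0.56 ± 0.097 (adjusted p = 0.0170). The Ang II call was lost without siNTC PBS replicate 1 or either siNTC Ang II array. The interaction was lost without either siNTC Ang II array, either siGiver PBS array or siGiver Ang II replicate 2. The assembly chaperones Psmg3 and Psmg4 were lower with Ang II (-0.35 and -0.32), and Pomp, the maturation factor of the core, was at the threshold (-0.14) and lost its call whichever array was left out and under 5 other settings. Among 10 tested ubiquitin receptors and deubiquitinases, 3 were higher and 2 lower in PBS, and 1 was higher and 3 lower with Ang II. Here 50% were called in PBS and 40% with Ang II, against 35.0% and 44.3% of all genes. With Ang II the list was thus close to the background. The PBS call of Usp14 was lost whichever array was left out. Those of Ubqln1, Ubqln2 and Ubqln4 were lost in some such fits, and that of Sem1 in none. The lower genes with Ang II were the deubiquitinases Uchl5 (-0.32) and Usp14 (-0.24) and the small lid subunit Sem1 (-0.25), and the higher one was Zfand5 (0.21), a factor that binds and activates the proteasome. Zfand5 rose with Ang II in siGiver cells by 0.42 ± 0.043 (adjusted p = 8.17e-04). Of 6 ubiquitin and E1 genes, 2 were tested, Uba1 and Uba6, and neither passed in PBS or with Ang II.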

How the data were processed

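Total RNA was hybridised to 8 Affymetrix arrays, 2 for each siRNA and treatment. The authors deposited 1 log2 value per probe set and array (2.06 to 14.6). RMA and Partek are named in the submitters' processing notes without versions. RMA corrects background, makes the arrays' quantiles equal and summarises each probe set, so a gene's levels compare between arrays and not with those of another gene. The labels do not tell separate cultures from repeat hybridisations, so p-values cover only the spread between the arrays, which may be technical.

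Among the 31099 probe sets are 57 controls, 20832 with 1 symbol in the platform annotation, 436 with several and 9780 unlisted. Some controls also carry 1 symbol, so these counts overlap. Without controls, 20826 probe sets had 1 symbol. Of the 20832 with 1 symbol, 20764 had a gene identifier found in RefSeq, and the RefSeq symbol was used for these. Probe sets under the 30th percentile (4.81 log2) were left out, and the brightest of each symbol was kept. limma 3.58.1 (R 4.3.3) fitted 1 mean for each of the 4 groups (4 residual and 3.53 prior degrees of freedom), and 6 contrasts were adjusted by Benjamini-Hochberg over 11377 genes. The script was tested on simulated data. The error given beside a difference is the standard error (SE) of limma's fit. Replicate numbers served only as names, since the deviations of same-numbered arrays in compared groups correlated between -0.07 and 0.10. Array number limits the precision. Scan dates were not used, so batches were not tested.

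The subunits, lists and tests were chosen with earlier results of these data known. Array values are given for the 4 largest called changes per comparison and direction whose arrays do not overlap, and for Psmb5, Psmb7, Psme1, Psme2 and Psme4 in any case. Each list names up to 4 members with the smallest p and those a sentence turns on. The processing was varied by dropping the filter or raising it to the 50th percentile, by averaging probe sets or testing each alone, by cyclic loess or subtracted array medians, by trended and robust moderation, by a replicate block, and by leaving out each array. Promoters are RefSeq sequences of GRCr8.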

Additional observations from a re-analysis of the deposited data

Results flagged for a closer look

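The Ang II effect differed between siNTC and siGiver cells for 3 of 36 subunits, by limma's test of the difference itself (adjusted over 11377 genes). That is 8.33% of the subunits against 6.21% of all genes, a share close to the background. All 3 differences were negative, as were those called for 2.87% of all genes. With the siNTC effect subtracted from the siGiver effect, the difference was -0.54 for Psme2 (adjusted p = 0.00338), -0.37 for Psme1 (adjusted p = 0.0130) and -0.31 for Psma5 (adjusted p = 0.0307), 2 arrays per group. The Psma5 call was lost whichever array was left out, that of Psme1 without siNTC Ang II replicate 2, siGiver PBS replicate 1 or siGiver Ang II replicate 2, and that of Psme2 passed in each such fit. For each, both siNTC Ang II arrays were above both siNTC PBS arrays, and both siGiver Ang II arrays were below both siGiver PBS arrays. The 5S ribosomal RNA control was highest in the siNTC Ang II arrays (8.88 and 8.93), and its part in these differences was not tested. With groups of 2 arrays, no sample was tested as an outlier.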

How the results depend on the processing

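No result changed its direction past the threshold under any alternative run, and the cause of the following changes was not tested. The count of subunits changed by Ang II in siNTC cells was 6 and became 3 with no filter, 15 with trended, robust moderation, and 1 to 5 with an array left out. Its median of 0.12 ranged from 0.10 to 0.16 with an array left out. In siGiver cells the count of 0 became 1 with a filter at the 50th percentile, 1 with cyclic loess and 5 with trended, robust moderation, and was 0 to 1 with an array left out. Its median of -0.01 was 0.01 with array medians subtracted, a move smaller than the replicate spread of 0.03. Between siRNAs in PBS the count of 16 became 26 with trended, robust moderation, and the median of -0.11 became -0.08 with cyclic loess (-0.0815) and ranged from -0.14 to -0.08 (-0.0765) with an array left out. With Ang II the median of -0.23 became -0.20 (-0.2013) with the mean of probe sets. The interaction count of 3 became 7 with a filter at the 50th percentile, 6 with cyclic loess and 13 with trended, robust moderation, and was 1 to 2 with an array left out. Same-numbered arrays share only a number, and with a replicate block as an additive term the counts were 5 (Ang II in siNTC), 0 (Ang II in siGiver), 17 (siRNA in PBS), 29 (siRNA with Ang II), 31 (siRNA averaged) and 2 (interaction). The calls over all genes moved as well. With trended, robust moderation, 852 genes rose with Ang II in siNTC cells, up from 451, and 685 had a called negative interaction, up from 326. In siGiver cells the Ang II calls went from 1036 higher and 816 lower to 1467 and 1335. Between siRNAs in PBS they went from 1817 higher and 2169 lower to 2054 and 2579. Called negative interactions numbered 489 of 9227 genes with the 50th percentile filter and 368 with cyclic loess. Leaving out an array leaves 1 array in its group, which is then assumed to vary like the others. Averaging the siRNA effect over treatments, 28 of 31 calls held whichever array was left out. The 2 arrays per group limit which small differences could be called, and those without a call are not shown to be equal.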
